A study of Drosophila melanogaster with 2 samples.

Results

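Tetraspanins are small membrane proteins that cross the membrane several times and gather other proteins, among them integrins, proteases and receptors, into patches of the plasma membrane and of vesicles. In the fly they are known from motor axons, from photoreceptors, from the Notch pathway and from the junctions that seal the gut, and many of their genes stand in a row in cytological region 42E on the right arm of the second chromosome. The family was taken here as every gene whose symbol in the platform annotation starts with Tsp and a digit, plus late bloomer (lbm), which is a gene of the 42E row under another name. The annotation named 30 such genes. Ratios from probes that carry 1 gene symbol existed on both arrays for 28 of them, out of 8224 genes measured in all. Tsp2A and Tsp3A were named only on probes that also carry symbols of unrelated genes, so they have no value here. Another 5 genes that match the rule in RefSeq (Tsp42A, Tsp42Ek, Tsp42Er, Tsp47F and Tsp68C) were not analysed here.

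The data came from 2 two-colour arrays of whole Drosophila melanogaster embryos. Embryos called hemocyte plus were wild type, and embryos called hemocyte minus carried a mutation of serpent (srp), which encodes a GATA factor needed to form embryonic blood cells (hemocytes) and the fat body. Array A held unwounded hemocyte minus RNA in Cy3 and unwounded hemocyte plus RNA in Cy5, and array B held the same kinds of embryo with the dyes swapped, without the word unwounded in its labels. The sources used here give neither the age of the embryos nor the serpent allele. The question of the study was how expression in serpent mutants departs from that in wild type embryos.

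The labels do not say which dye was the numerator of the deposited ratios, so the direction is likely rather than settled. With Cy3 as the numerator, 14 of 15 plasmatocyte markers and 5 of 6 crystal cell markers were above 0. This reading was taken because of such markers, and under it a positive ratio stands for more RNA in wild type embryos. A positive ratio is called the hemocyte side below, a negative one the mutant side, and every sign turns if Cy5 was the numerator. Log2 ratios were centred on the median of each array and tested against 0 with limma, with Benjamini-Hochberg adjustment over all 8224 genes and a threshold of 0.05. Errors after ± are SDs of the 2 arrays. Nothing in the labels says that the arrays held separate RNA extracts, so the p-values measure only the spread between these arrays, which may be technical. For each gene limma pooled that spread with the spread over all genes, so the p-values do not rest on the printed SD alone.

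Tetraspanin genes lay mostly on the mutant side. Of the 28 measured genes, 14 passed the limma test there, where 8.18% of all genes did, and 0 passed on the hemocyte side, where 5.27% of all genes did. At an unadjusted p under 0.05, 16 members lay on the mutant side and 0 on the hemocyte side, against 15.3% and 12.2% of all genes. The members that passed differed by 1.41-fold to 3.26-fold, with a median of 1.62-fold. The median log2 ratio of the family was -0.48, and that of all genes was 0.00. Below 0 were 23 members, against 49.8% of all genes. These counts describe the family and are not a test of it against other genes.

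**Figure D1:**
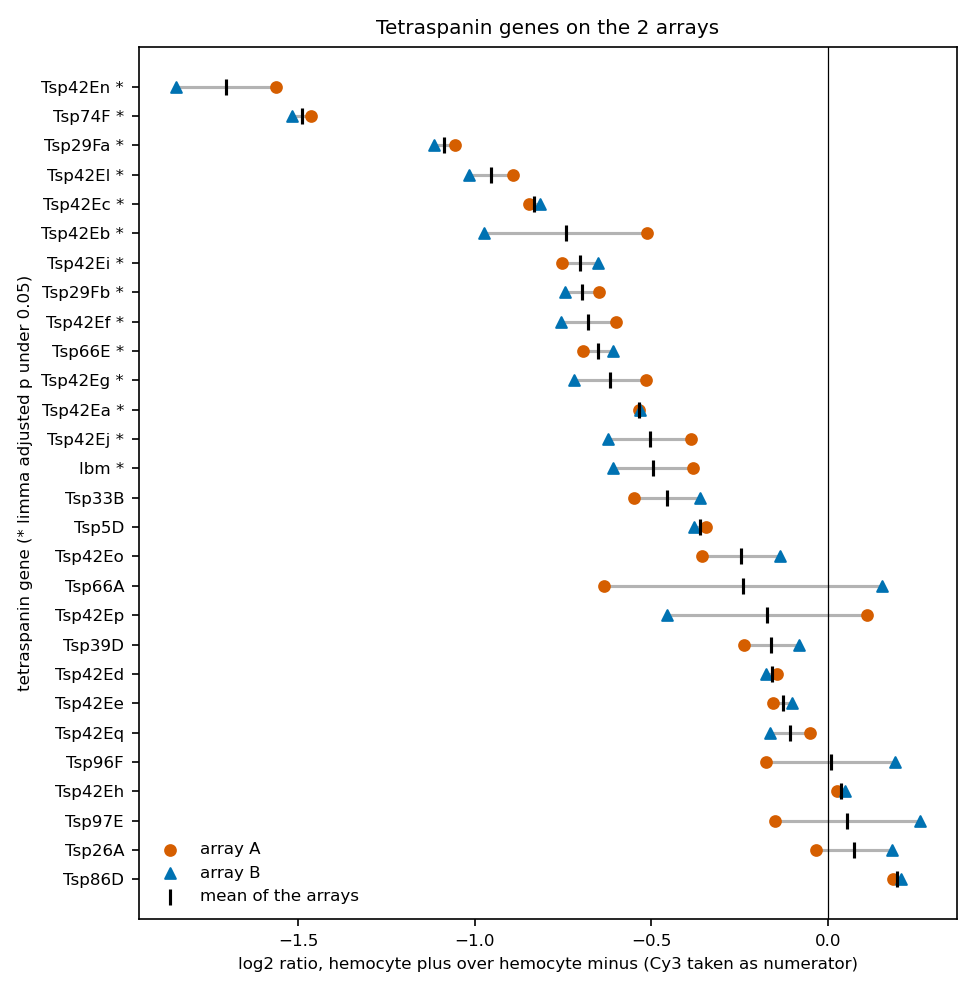
Log2 ratio of each of the 28 measured tetraspanin genes on array A (circles) and array B (triangles), with the mean as a black tick; stars mark genes with a limma adjusted p under 0.05. The 14 starred genes are all left of 0 on both arrays, and no mean right of 0 lies beyond 0.20.

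A difference of at least 2-fold on both arrays was seen for 3 members, Tsp42En, Tsp74F and Tsp29Fa. All were on the mutant side, where 1.82% of all genes met that rule, and 0 members met it on the hemocyte side, where 1.17% of all genes did. Tsp42En, a gene of the 42E row, had deposited values of -2.92 (array A) and -0.284 (array B). These correspond to centred log2 ratios of -1.56 and -1.85, with a mean of -1.70 ± 0.20 (3.26-fold, limma adjusted p = 0.000875). It was the lowest tetraspanin on both arrays and ranked 53 from the lowest among all genes. Tsp74F, which stands outside the 42E row, had deposited values of -2.725 and -0.357. Its log2 ratios were -1.46 on array A and -1.52 on array B, a mean of -1.49 ± 0.04 (2.81-fold, limma adjusted p = 0.000926). The values of these genes did not overlap, although array B of Tsp74F came close to array A of Tsp42En, and both genes lay below all other members on each array.

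Tsp29Fa had log2 ratios of -1.06 and -1.12, with a mean of -1.09 ± 0.04 (2.12-fold, limma adjusted p = 0.0024). Its tandem neighbour Tsp29Fb lay on the same side with a smaller difference, at -0.65 on array A and -0.74 on array B (mean -0.70 ± 0.07, 1.62-fold, limma adjusted p = 0.0112). The arrays of this pair did not overlap, since both values of Tsp29Fa lay below both of Tsp29Fb; the difference between the genes was not tested. Tsp66E was the other gene outside the 42E row that passed, at -0.69 and -0.61 (mean -0.65 ± 0.06, 1.57-fold, limma adjusted p = 0.0141).

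The 42E row held 18 tetraspanin genes in RefSeq, and 16 of them were measured. On the mutant side 10 of the 16 passed, and 15 of the 16 were below 0. Outside the row 4 of 12 members passed, and 8 of 12 were below 0. Of all genes, 8.18% passed on the mutant side and 49.8% were below 0. The median log2 ratio was -0.52 in the row and -0.30 outside it. Single arrays gave medians of -0.45 (A) and -0.62 (B) in the row and of -0.45 (A) and -0.22 (B) outside it, so the groups differed on array B and hardly on array A. Whether the row differs from the other members was not tested.

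**Figure D2:**
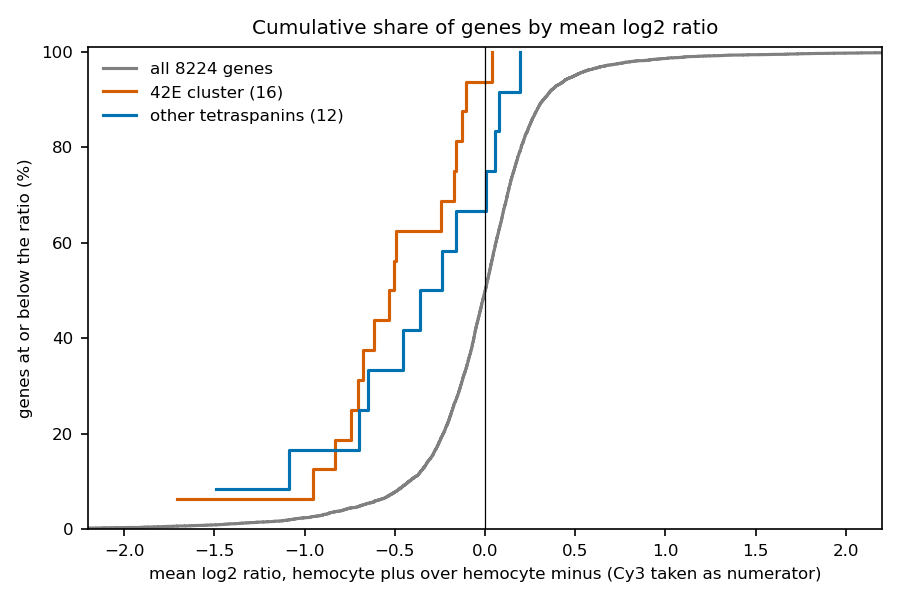
Percentage of genes at or below each mean log2 ratio, for all 8224 genes (grey), the 16 measured genes of the 42E row (orange) and the 12 other tetraspanins (blue); 34 genes of the grey curve lie beyond the axis limits of 2.2. Both tetraspanin curves run left of the grey curve, and at a ratio of 0 the curve of the 42E row has passed 15 of its 16 genes and that of the others 8 of 12.

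Within the row the ratios did not run evenly along the chromosome. At one end, Tsp42Ea lay at -0.54 on array A and -0.53 on array B (mean -0.53 ± 0.00, 1.45-fold, limma adjusted p = 0.027). Tsp42Eb followed at -0.51 and -0.97, the widest spread among the members that passed (mean -0.74 ± 0.33, 1.67-fold, adjusted p = 0.0232). Tsp42Ec had values of -0.85 and -0.82 (mean -0.83 ± 0.02, 1.78-fold, adjusted p = 0.00563). The next genes, Tsp42Ed and Tsp42Ee, stood close to 0. Tsp42Ed had values of -0.14 and -0.18 (adjusted p = 0.4), and Tsp42Ee had values of -0.15 and -0.10 (adjusted p = 0.503). On each array both lay above their measured tetraspanin neighbours Tsp42Ec and Tsp42Ef by more than the spread of the 2 arrays of any of these genes.

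Tsp42Ef lay at -0.60 and -0.76 (mean -0.68 ± 0.11, 1.60-fold, limma adjusted p = 0.0134). Tsp42Eg had values of -0.51 and -0.72, averaged over 2 probes (mean -0.62 ± 0.14, 1.53-fold, adjusted p = 0.0212). Tsp42Eh was the one measured gene of the row above 0, at 0.03 on array A and 0.05 on array B (adjusted p = 0.858). It stands between Tsp42Eg and Tsp42Ei, and Tsp42Ei lay at -0.75 and -0.65 (mean -0.70 ± 0.07, 1.63-fold, adjusted p = 0.011). The near-zero value of Tsp42Eh therefore sat between genes that passed on either side of it.

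Tsp42Ej, also called sunglasses and known for the lysosomal breakdown of rhodopsin in photoreceptors, lay at -0.39 and -0.62 (mean -0.50 ± 0.17, 1.42-fold, limma adjusted p = 0.0423). Tsp42El had values of -0.89 and -1.02 (mean -0.95 ± 0.09, 1.94-fold, adjusted p = 0.00393), the largest difference in the row after Tsp42En. The gene lbm stands between Tsp42El and Tsp42En. It encodes a tetraspanin of motor axons that is known for helping the neuromuscular synapse to form, and it lay at -0.38 on array A and -0.61 on array B (mean -0.50 ± 0.16, 1.41-fold, adjusted p = 0.044). Both values of lbm lay above those of its neighbours. The calls of Tsp42Ej and lbm were close to the threshold, and each gene has 1 probe. Each call ended when the probe of largest change stood for a gene (adjusted p = 0.0528 for Tsp42Ej and 0.0545 for lbm). Each also ended without re-amplified or duplicate probes (0.053 and 0.0547) and with every probe tested on its own (0.0551 and 0.0569). The ratios of both genes were unchanged in these settings, which altered only the values of other probes and genes in the fit. Tested against a 1.2-fold difference, both calls ended as well (adjusted p = 0.356 for Tsp42Ej and 0.381 for lbm).

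Beyond Tsp42En the ratios were small. Tsp42Ep lay at 0.11 on array A and -0.46 on array B, on different sides of 0 (mean -0.17 ± 0.40, limma adjusted p = 0.537). Tsp42Eo, which lies within the span of Tsp42Ep, had values of -0.36 and -0.14 (mean -0.25 ± 0.16, adjusted p = 0.241). Tsp42Eq had values of -0.05 and -0.16 (adjusted p = 0.589). None of these genes passed. In RefSeq, Tsp42Ea overlaps Tsp42Eb, Tsp42Ej overlaps Tsp42Ek and Tsp42Eo overlaps Tsp42Ep, and long cDNA probes need not tell overlapping genes or close relatives apart, which was not examined here.

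Genes of other families in and beside the row were looked up after the ratios of the tetraspanins were known. Of the 6 other protein-coding genes between the ends of the row, 2 were measured. Pgant3, which encodes an enzyme that adds the first sugar of O-linked chains and stands between Tsp42Eo and Tsp42Eq, lay at -0.72 on array A and -0.92 on array B (mean -0.82 ± 0.14, 1.76-fold, limma adjusted p = 0.00752). CG30159, which overlaps Tsp42Ea, lay at -0.39 and -0.68 (mean -0.54 ± 0.20, adjusted p = 0.0399). Both passed on the mutant side, where 8.18% of all genes and 10 of the 16 tetraspanins of the row did. The call of CG30159 was lost in 4 of the 7 alternative limma settings. Only 2 such genes were measured and 1 of them overlaps a member, and whether the region shares a difference was not tested. Of the 3 nearest protein-coding genes on each flank, 3 were measured in all, and none passed. These were vimar at 0.06 ± 0.07 and CG17002 at 0.01 ± 0.11 on one flank and esn at -0.19 ± 0.31 on the other.

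**Figure D3:**
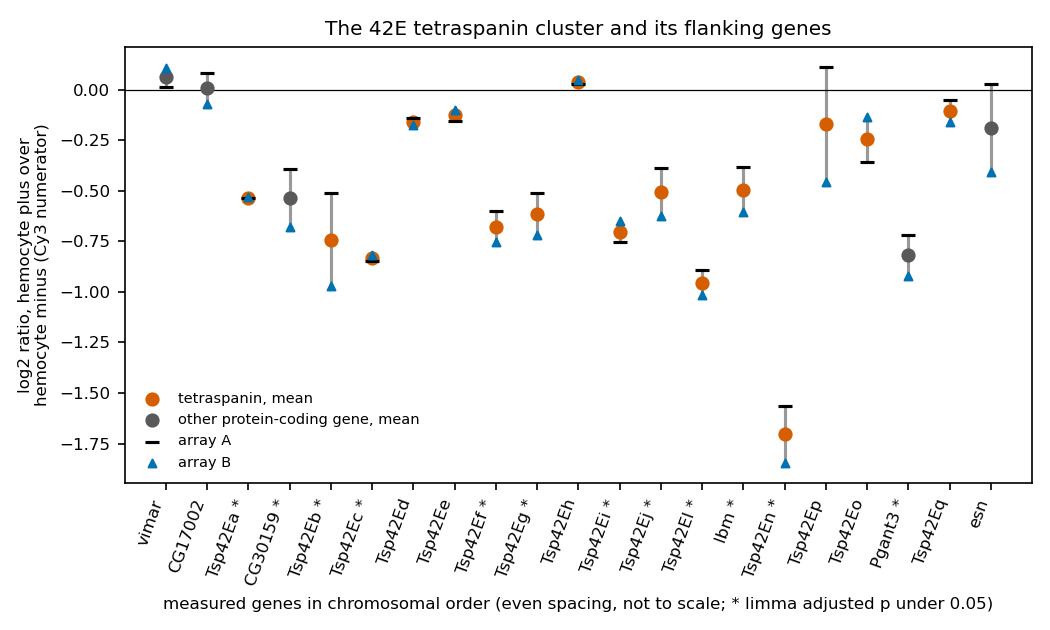
Log2 ratios of the measured protein-coding genes of the 42E row and its flanks in chromosomal order with even spacing; filled circles are means (tetraspanins orange, other genes grey), dashes are array A and triangles are array B, and stars mark a limma adjusted p under 0.05. Tsp42En is the lowest at -1.70, while Tsp42Ed, Tsp42Ee and Tsp42Eh stand near 0 between lower genes.

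Tetraspanins of the C8 group carry the ADAM10 protease, called Kuzbanian in the fly, to the cell surface, where it cleaves Notch. The measured members of that group were Tsp26A and Tsp86D, and neither passed. Tsp86D was the highest tetraspanin, at 0.18 on array A and 0.21 on array B (mean 0.20 ± 0.02, 1.15-fold, limma adjusted p = 0.307). Tsp26A, averaged over 2 probes, had values of -0.03 and 0.18 (mean 0.07 ± 0.15, adjusted p = 0.731). Both values of Tsp86D and of Tsp26A lay above those of the 14 members that passed. Those 14 were called for low ratios, so members near 0 will mostly lie above them. Tsp42Eh, Tsp96F, Tsp97E, Tsp5D, Tsp39D, Tsp42Ed, Tsp42Ee, Tsp42Eo and Tsp42Eq did so too. The comparison therefore does not set the C8 group apart.

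The other members outside the 42E row did not pass either. Tsp33B lay closest to the threshold, at -0.55 and -0.36 (mean -0.46 ± 0.13, 1.37-fold, limma adjusted p = 0.0527), and it passed without centring (adjusted p = 0.0413), with scaled arrays (0.0454) and with a robust prior (0.0347). Tsp5D had values of -0.34 and -0.38 (mean -0.36 ± 0.03, adjusted p = 0.0887) and Tsp39D of -0.24 and -0.08 (adjusted p = 0.416). Tsp66A had the widest spread of all members, from -0.63 on A to 0.15 on B (mean -0.24 ± 0.56, adjusted p = 0.482). Tsp96F (0.01 ± 0.26) and Tsp97E (0.05 ± 0.29), the fly relative of human TSPAN31, also had different signs on the arrays. With Tsp26A and Tsp42Ep these make 5 members of different sign. The other 23 members had one sign on both arrays, against 68.6% of all genes.

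The 5 members with 2 probes differed in how well the probes matched. The probes of Tsp26A lay at 0.05 and 0.10, and those of Tsp42Eg at -0.47 and -0.76. The probes of Tsp39D came from 1 clone, and lay at -0.29 and, after re-amplification, at -0.03. For Tsp5D the difference was larger: the first probe lay at -0.10 (limma adjusted p = 0.622 among single probes) and the re-amplified probe of the same clone at -0.62 (adjusted p = 0.0234). The probes of Tsp42Eo lay at -0.42 and -0.07, and the latter had different signs, with -0.35 (A) and 0.22 (B). The ratio of Tsp5D therefore depends on which spot is read, and with the probe of largest change it passed (adjusted p = 0.023).

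**Figure D4:**
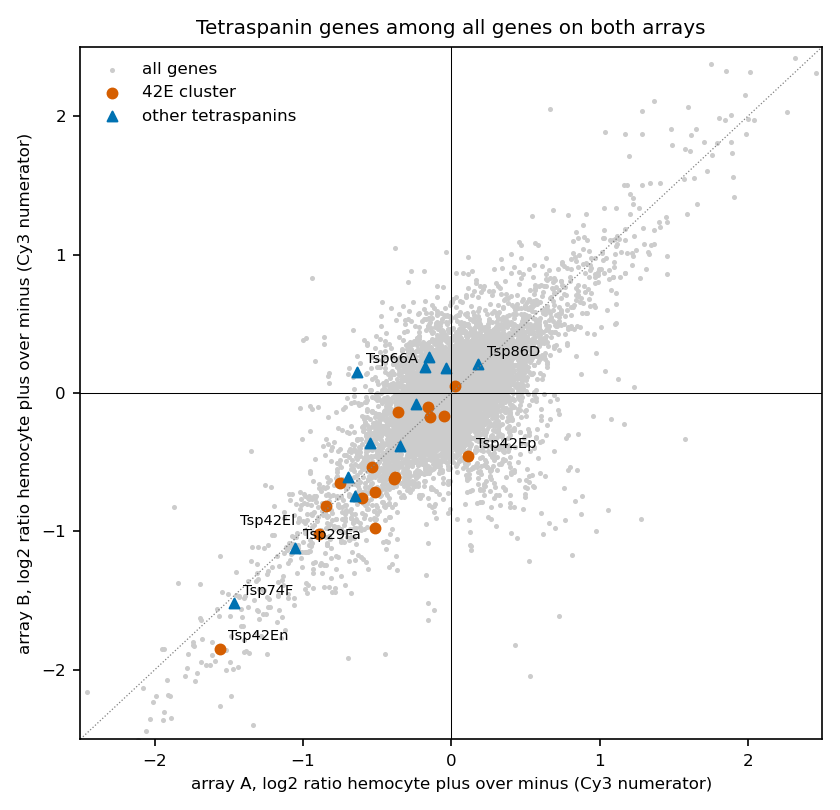
Log2 ratio on array A against array B for all genes (grey) and for tetraspanins of the 42E row (orange circles) and elsewhere (blue triangles), with the dotted line marking equal values; 32 genes lie outside the axis limits of 2.5. Tsp42En and Tsp74F lie far down the diagonal, Tsp66A and Tsp42Ep lie off it, and Tsp86D lies above 0 on both arrays.

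Pearson's r between the arrays was 0.863 across the 28 members, against 0.746 across all genes. The points share the 2 hybridisations and genes are not independent replicates, so these values are a description. The SD of the 2 arrays had a median of 0.10 over the members, with a range from 0.00 for Tsp42Ea to 0.56 for Tsp66A, and a median of 0.12 over all genes.

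The probes are cDNA clones whose name prefix records the library of origin, a feature that the choice of members did not use. Among single probes of all genes, 7.21% passed on the mutant side, and of the 33 member probes 13 did. Embryonic clones of the RE library, with 14 member probes the most frequent source, passed there in 13.7% of all cases and in 6 of 14 member probes. Head clones of the GH library passed in 6.86% of all cases and in 3 of 4 member probes, and RH head clones in 10.6% and in 2 of 5. Clones of the LP library, from larvae and early pupae, passed in 10.0% and in 2 of 4. The 6 member probes from ovary (GM, 4.32% of all), the other embryonic library (LD, 3.60%), testis (AT, 2.24%) and cultured cells (SD, 3.51%) included 0 that passed. The RE, RH and LP libraries, which lay above the share of all probes, were the source of most member probes, and the part of this in the count of the family was not tested.

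Over 6 lists of genes set beside the family, 58 genes were measured, with a median log2 ratio of 0.02. The lists held partners of tetraspanins, but also claudin-type proteins, vesicle genes and genes from the setting of lbm. They are called partner lists, and their genes partner genes, although not all are known partners. Of the 58 genes, 1 passed on the mutant side and 2 on the hemocyte side, where 8.18% and 5.27% of all genes did. Among 9 genes of ADAM10 and Notch signalling, numb, which encodes an inhibitor of Notch, passed on the hemocyte side at 0.50 and 0.62 (mean 0.56 ± 0.09, 1.47-fold, limma adjusted p = 0.0251). The protease gene kuz itself lay at 0.20 ± 0.17 (adjusted p = 0.338) and mam, a Notch co-activator, was the lowest at -0.22 ± 0.02. The list had a median of 0.16.

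Tsp2A, which has no value here, works with Ssk, Mesh and Hoka in the smooth septate junction of the gut and Malpighian tubules. Of 7 genes of that junction and its scaffolds, hoka passed on the mutant side at -0.37 and -0.65 (mean -0.51 ± 0.20, 1.42-fold, limma adjusted p = 0.0461). The gene mesh lay near it at -0.30 and -0.54 (mean -0.42 ± 0.17, adjusted p = 0.0761), Ssk lay at -0.07 ± 0.15, and l(2)gl was the highest at 0.16 ± 0.17. The call of hoka was lost in 4 of the 7 alternative limma settings, with adjusted p-values up to 0.367. None of 7 claudin-type and pleated septate junction genes passed, from sinu at -0.09 ± 0.04 to Cont at 0.27 ± 0.00. Of all genes, 8.18% passed on the mutant side and 5.27% on the hemocyte side. A single call, or none, in lists of this size is close to those shares.

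Integrins are the best known partners of tetraspanins in mammals. None of 9 integrin and adhesion genes passed, from the PINCH gene stck at -0.36 ± 0.09 (limma adjusted p = 0.0973) to the beta integrin gene Itgbn at 0.25 ± 0.13, and the beta subunit gene mys lay at -0.09 ± 0.01. None of 15 genes of vesicle sorting and release passed, from Rab27 at -0.26 ± 0.26 to Vps24 at 0.31 ± 0.15. Of 11 genes of motor axon guidance and the neuromuscular synapse, the setting of lbm, the Toll receptor gene Tl passed on the hemocyte side at 0.56 and 0.74 (mean 0.65 ± 0.13, 1.57-fold, adjusted p = 0.0161), and NetB was the lowest at -0.38 ± 0.19. With 8.18% of all genes past the threshold on the mutant side and 5.27% on the hemocyte side, few calls are expected in such short lists. At an unadjusted p under 0.05, 4 of the 58 partner genes lay on the mutant side and 6 on the hemocyte side, against 15.3% and 12.2% of all genes.

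**Figure D5:**
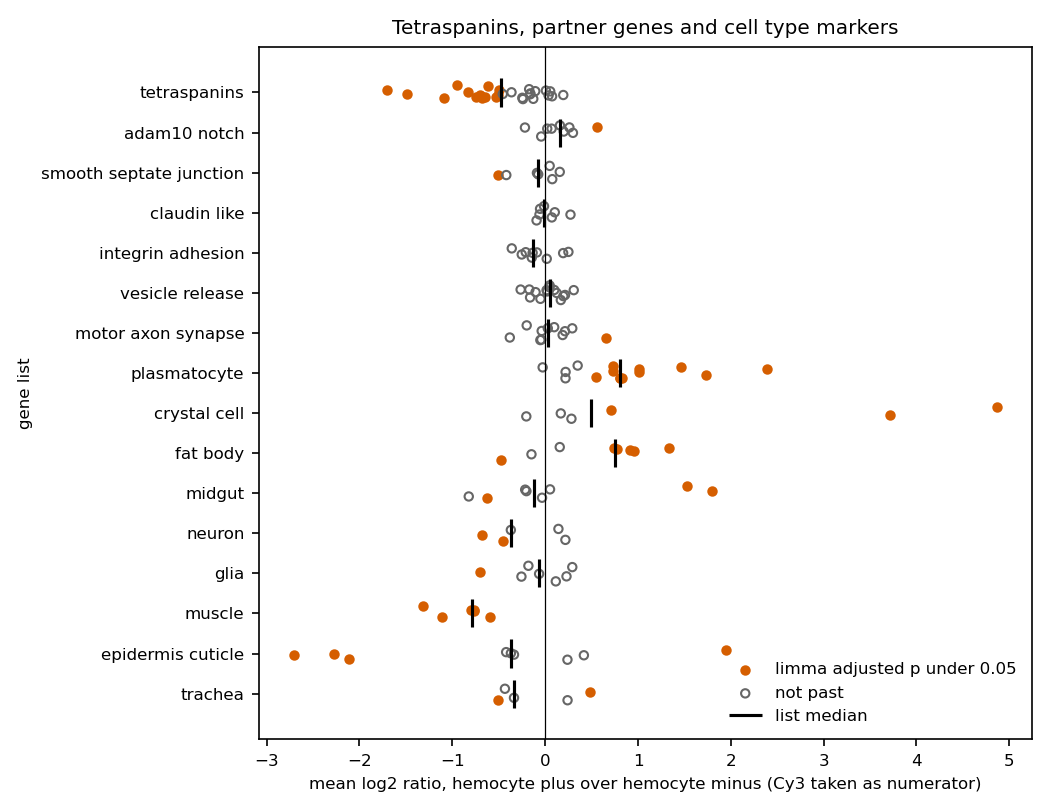
Mean log2 ratio of each measured gene in the tetraspanin family, 6 partner lists and 9 marker lists; filled orange points have a limma adjusted p under 0.05, open points do not, and black bars are list medians, with points spread vertically for legibility. The tetraspanin median of -0.48 lies left of all 6 partner medians, and muscle markers are the marker list with the lowest median.

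Among the marker lists, muscle lay on the side of the tetraspanins throughout. All 6 measured muscle markers passed on the mutant side, where 8.18% of all genes did, from -1.32 to -0.59 with a median of -0.78. The next lists were mixed or held few calls. Of 9 epidermis and cuticle markers, 3 passed on the mutant side and 1 on the hemocyte side, from -2.70 to 1.95 with a median of -0.37. Of 5 neuron markers, 2 passed on the mutant side, from -0.68 to 0.22. Of 5 trachea markers 1 passed on each side, of 7 glia markers 1 passed on the mutant side, and of 8 midgut markers 1 passed on the mutant side and 2 on the hemocyte side. A single call in a list of this size is close to the share over all genes, 8.18% on the mutant side and 5.27% on the hemocyte side. Plasmatocyte markers passed on the hemocyte side in 11 of 15, crystal cell markers in 3 of 6 and fat body markers in 5 of 8, with 1 fat body marker on the mutant side. The side of the plasmatocyte and crystal cell markers is no separate result, because the direction was chosen by such markers. The arrays give ratios of whole embryos and no levels, so more cells of a type and more RNA per cell cannot be told apart, and the part of muscle or of other tissues in the ratios of the tetraspanins was not tested.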

How the data were processed

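Per the labels, total RNA (Trizol, then RNeasy) was labelled through amino-allyl reverse transcription. For each probe and array the authors deposited a negative value, whose size behaves as a linear dye ratio. The sources used here give no scanner, background correction, normalization or numerator. Signal over background was not available, and precision is limited by the number of arrays. Sizes of the deposited ratios were log2-transformed, turned by the dyes in the labels and centred on the array median. Of 12144 probes, 9917 had 1 symbol in the platform annotation, 625 had several and 1602 had none. Gene identifiers of 9746 matched the RefSeq table of the Release 6 assembly, and this match changed no symbol. RefSeq also gave gene order, overlaps, protein-coding status and the genes that match the family rule. Values were missing for 137 probes on array A and 128 on array B. Probes were averaged per gene, and an intercept was fitted to each gene with lmFit and eBayes of limma 3.58.1 (R 4.3.3). Residuals had 1 degree of freedom, and moderation added 5.01 with a prior SD of 0.168. The procedure was tested on simulated data. Members, partner lists and marker lists were chosen with earlier results of these data known. All members were named; of each partner list, genes past the threshold and the lowest and highest were named, with kuz, mesh, Ssk and mys added after their values were seen. Alternatives changed the centring, scaling, probe choice, prior, tested difference and arrays.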

Additional observations from a re-analysis of the deposited data

How the results depend on the processing

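On the mutant side, 12 to 15 tetraspanin genes passed the threshold without centring, with scaled arrays, without marked probes and with a robust prior. The count stayed in that range with the probe of largest change and with each probe on its own. The latter setting kept the probe of smallest p-value per gene, so a gene with several probes passed if any of them did. In all of these settings 7.27% to 9.33% of all genes passed on the mutant side, and 0 tetraspanins passed on the hemocyte side. Tested against a 1.2-fold difference rather than 0, 5 members passed (Tsp42En, Tsp74F, Tsp29Fa, Tsp42El and Tsp42Ec), where 4.09% of all genes did, and 3 were at least 2-fold on both arrays. These 5 passed in every limma setting. No tetraspanin changed its sign in any setting that used both arrays, but this was largely fixed in advance. The robust prior and the test against 1.2-fold leave the ratios as they are. Probe choice can alter only the 5 members with 2 probes. The family's median was -0.49 on array B alone and -0.45 on array A alone, where no test is possible and no count of calls exists. Of the partner genes, 0 passed on the mutant side with the probe of largest change, without marked probes, with each probe on its own, against 1.2-fold and at 2-fold, and 0 passed on the hemocyte side against 1.2-fold and at 2-fold. Without centring, the median of all genes lay at 0.02. Brightness and spot quality could not be used as filters. No paired analysis was possible because the arrays form 1 group.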
